A study of Mus musculus with 4 samples.

Results

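The genes described here encode the intermediate, light intermediate and light chains of axonemal dynein, measured as RNA in mouse testes with and without the transcription factor RFX2. They are 9 of the 22311 genes with a value in each sample. They were picked by gene symbol, with earlier results of these data known. Of these, 4 are intermediate chains (Dnaic1, Dnaic2, Wdr63 and Wdr78), 1 is a light intermediate chain (Dnali1) and 4 are light chains (Dnal1, Dnal4, Dynlrb1 and Dynlrb2). The files list 7 of them under these symbols. Dnal1 and Dnal4 were found under the older symbols Dnalc1 and Dnalc4, which RefSeq gives as their synonyms.

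RNA was sequenced from the whole testes of 24-day-old male mice, with 2 samples per genotype. The mutants carried rfx2-/-, a conventional knockout from a single embryonic stem cell clone in which the exons for the DNA-binding domain were exchanged for a neomycin-resistance cassette, so every cell of the animal carried the allele. The labels give the controls as wild type and the strain as DBA, while the methods of the study describe heterozygous controls and a mixed genetic background. No treatment is named for either group. Levels are FPKM, fragments scaled to transcript length and to the mapped fragments of the sample, which are normalized for length and depth and can be compared between genes.

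Axonemal dyneins are the motors of motile cilia and of the sperm flagellum. Heavy chains produce the force, and intermediate and light chains assemble the complex, fix it to the doublet microtubules and regulate it. Outer arms set the beat frequency and inner arms shape the bend. Round spermatids build the flagellum after meiosis, and RFX factors bind the X-box, an imperfect inverted repeat found near the start of many ciliary genes.

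The start regions were read first, because the members differ in whether they hold an X-box. The standard X-box, with no mismatch and on either strand, was looked for up to 1000 bases either side of the first annotated start, in the NCBIM37 (mm9) genome. It was found for 3 of the 9 members, Dnaic1, Dnaic2 and Dynlrb2, and for 4.6% of the 12620 tested genes with a position. Each region below runs 5′ to 3′ on the gene's strand from 100 bases before the start and includes 20 bases from the start on, and capitals mark the X-box.

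Dnaic1, chr4:41516708-41516827, plus strand: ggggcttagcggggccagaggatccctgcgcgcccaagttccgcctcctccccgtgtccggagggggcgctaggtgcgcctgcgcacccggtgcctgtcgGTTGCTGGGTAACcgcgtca
Dnaic2, chr11:114588622-114588741, plus strand: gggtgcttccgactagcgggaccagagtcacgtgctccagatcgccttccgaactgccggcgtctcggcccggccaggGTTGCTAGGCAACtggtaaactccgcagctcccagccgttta
Dynlrb2, chr8:119028815-119028934, plus strand: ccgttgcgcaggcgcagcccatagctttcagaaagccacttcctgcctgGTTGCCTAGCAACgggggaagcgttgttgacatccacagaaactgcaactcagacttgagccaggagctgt

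In Dynlrb2 the match lay 51 to 39 bases before the start. In Dnaic2 it lay 22 to 10 bases before the start, and its letters on the opposite strand, GTTGCCTAGCAAC, were the same 13 bases as in Dynlrb2. In the annotation used here, the Dnaic1 match began at the first base of exon 1, and on the opposite strand it reads GTTACCCAGCAAC. All 3 matches also lay within 300 bases of the start, where 2.81% of the tested genes held one. In the RefSeq promoter windows of GRCm38.p6, 300 bases long, the same 3 of the 8 members with an entry held an X-box, against 1.75% of 27025 symbols. In those windows the match began at -19 from the start for Dnaic1, -33 for Dnaic2 and -51 for Dynlrb2. The Dnaic1 match thus lay before the RefSeq start. Wdr78 had no entry in that table.

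Dnali1 and Wdr78, described below with the falling members, held no X-box without a mismatch within 1000 bases, and their start regions are shown for comparison. The study searched with a weight matrix instead, and examined the Dnali1 and Dynlrb2 promoters by ChIP-PCR around sites predicted in that way. It reports that the RFX2 antibody precipitated most of the promoters examined. Its text does not say whether both of these were among them.

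Dnali1, chr4:124742928-124743047, minus strand: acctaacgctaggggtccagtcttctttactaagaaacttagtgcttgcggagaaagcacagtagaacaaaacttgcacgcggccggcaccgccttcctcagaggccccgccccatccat
Wdr78, chr4:102787141-102787260, minus strand: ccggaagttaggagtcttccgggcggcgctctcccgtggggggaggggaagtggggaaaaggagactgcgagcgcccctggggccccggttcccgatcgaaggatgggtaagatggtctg

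With 1 mismatch allowed, 6 of the 9 members had a match within 1000 bases, Wdr78, Dnal1 and Dnal4 joining the 3 above, but so did 48.0% of the tested genes. A match, or the lack of one, describes letters only and says nothing of where RFX2 binds, which was not analysed here.

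Of the 9 members, 4 fell in the mutants (adjusted p under 0.05) and none rose. The falling members were Dnaic2, Dnali1, Dynlrb2 and Wdr78, which are 1 outer arm intermediate chain, 1 inner arm light intermediate chain, 1 light chain and 1 inner arm intermediate chain. Over all 12985 genes tested, 2.52% fell and 0.308% rose. At an unadjusted p under 0.05 from limma, 5 members were lower and 1, Dnaic1, was higher, against 6.68% and 2.01% of all genes tested. All 9 members passed the filter, which asked for 1 FPKM or more in 2 or more samples. The 4 falling members were among the 7 listed under their current symbols. Dnali1 and Dynlrb2 belong to the genes the study selected from these same samples, so their fall is not independent evidence. All members were chosen with earlier results of these data known, so the falls of Dnaic2 and Wdr78 are not independent evidence either. The test was limma on log2(FPKM + 1), two-sided, with Benjamini-Hochberg adjustment over all genes tested, and every fold change and adjusted p given for it below is on that scale and from that test.

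The 2 samples of a genotype did not overlap those of the other for any member. Both mutant samples lay below both controls for 6 members, against 15.2% of all genes tested, and above both controls for 3, against 16.3%. The median log2 fold change of the members was -0.66, and -1.13 over the 7 listed under their current symbols. The median of all genes tested was 0.03. In whole testes, fewer cells of a type and less RNA per cell cannot be told apart.

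**Figure D1:**
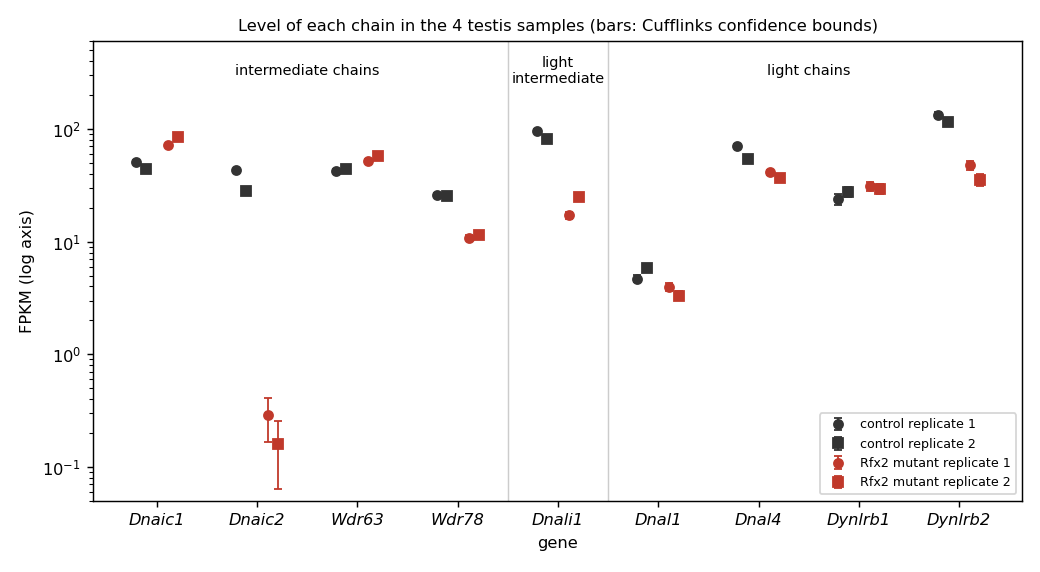
FPKM of each chain in each of the 4 samples, on a log axis, with controls in black, Rfx2 mutants in red, replicate 1 as circles and replicate 2 as squares. Bars are the Cufflinks confidence bounds, and Dnaic2 in the mutants, at 0.286 and 0.16, lies below every other value plotted.

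Rfx2 itself was read at 36.7 and 39.8 FPKM in mutant 1 and 2 and at 123 and 89.4 FPKM in control 1 and 2. Its log2 fold change was -1.43 ± 0.19 (SE), with an adjusted p of 0.00617. Only part of the gene was removed, so reads from the exons left in place still count toward its FPKM. The fall of Rfx2 passed in 9 of 11 alternatives with all 4 samples, and missed the threshold with no filter (adjusted p = 0.0607) and with median-ratio scaling (adjusted p = 0.0829). Without control 1 its adjusted p was 0.0628.

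Dnaic1 and Dnaic2 encode the pair of intermediate chains at the base of the outer dynein arm, and mutations of either human gene cause primary ciliary dyskinesia with loss of outer arms. In NCBIM37, Dnaic1 lies at chr4:41516808-41585191 on the plus strand with up to 20 exons, and Dnaic2 at chr11:114588722-114619203 on the plus strand with up to 13 exons. Dnaic2 fell in the mutants, and Dnaic1 did not pass the test.

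Dnaic2 was read at 43.1 and 28.4 FPKM in control 1 and 2, and at 0.286 and 0.16 FPKM in mutant 1 and 2. Both mutant samples were thus close to 0, and Dnaic2 passed the filter through its control samples alone, so that a gene tested with such mutant values had to be lower there. It was also called with no filter. The mean was 35.7 ± 10.3 FPKM (SD, n = 2) in the controls and 0.223 ± 0.089 (SD, n = 2) in the mutants.

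The mutant mean was 0.624% of the control mean, a ratio of 160 without a pseudocount. The confidence bounds of the files were 0.167 to 0.405 FPKM in mutant 1 and 0.0636 to 0.257 in mutant 2. These bounds correspond to about 23 and 11 fragments in the mutants, against about 3309 and 2316 in the controls.

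In limma, Dnaic2 changed by -4.88 ± 0.25 (SE) on the log2 scale, with an adjusted p of 4.3e-05. It passed the threshold in all 11 alternatives with 4 samples and with each sample left out. Its size depended on the pseudocount, at -6.79 with 0.1 and -7.28 with 0.01, because the mutant values are small beside 1.

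Dnaic1 was read at 51.4 and 44.1 FPKM in control 1 and 2, and at 72.1 and 85.0 FPKM in mutant 1 and 2. Both mutant values lay above both control values, the direction opposite to its partner. The log2 fold change was 0.71 ± 0.17 (SE), and the adjusted p of 0.0998 missed the threshold. Its unadjusted p from limma was 0.00366, and it was the 1 member with an unadjusted p under 0.05 and a higher mean in the mutants, as were 2.01% of all genes tested. With robust eBayes its adjusted p was 0.0301 and it was called higher. Without mutant 1 its adjusted p was 0.00891. The end of Dnaic1 overlaps Enho on the opposite strand, and since no strand-specific counting is stated, reads there cannot be told apart.

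Within each sample, Dnaic1 was close to Dnaic2 in the controls, with ratios of 1.19 and 1.55, and far above it in the mutants, with ratios of 252 and 530. The log2 ratio differed by 8.07 between genotypes (exact permutation test, two-sided, n = 2 per genotype, p = 0.33, the smallest p this design allows). With a pseudocount of 1 the difference was 5.59. Both genes hold an X-box close to the start, as shown above.

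Wdr63 and Wdr78 encode WD-repeat intermediate chains of the inner arm, counterparts of IC140 and IC138 of the alga Chlamydomonas, where they belong to the I1 dynein that regulates bend shape. In NCBIM37, Wdr63 lies at chr3:145703490-145771094 and Wdr78 at chr4:102710670-102787160, both on the minus strand, with up to 23 and 17 exons. Only Wdr78 passed the test.

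Wdr78 was read at 25.8 and 25.3 FPKM in control 1 and 2, and at 10.9 and 11.5 FPKM in mutant 1 and 2. The replicates lay close together, and the mutant mean of 11.2 ± 0.428 FPKM (SD, n = 2) was 43.7% of the control mean of 25.6 ± 0.313 (SD, n = 2). Wdr78 changed by -1.13 ± 0.17 (SE) on the log2 scale, with an adjusted p of 0.011. Without control 1 the adjusted p was 0.16 and without control 2 it was 0.126. The first bases of Wdr78 overlap Mier1 on the opposite strand, and reads there cannot be assigned to one gene.

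Wdr63 was read at 42.7 and 44.5 FPKM in control 1 and 2, and at 52.3 and 57.3 FPKM in mutant 1 and 2. The mutant values were a little above the control values without overlap. A log2 fold change of 0.32 ± 0.16 (SE) had an adjusted p of 0.722 and passed in none of the alternatives.

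The ratio of Wdr63 to Wdr78 was 1.66 and 1.76 in the controls and 4.81 and 4.99 in the mutants. The log2 ratio differed by 1.52 (exact permutation test, two-sided, n = 2 per genotype, p = 0.33, the smallest possible).

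Dnali1 encodes the light intermediate chain of inner arms, the counterpart of p28 of Chlamydomonas, which binds single-headed inner arm heavy chains. It lies at chr4:124732582-124742947 on the minus strand, with 6 exons. Its reading was 97.0 and 80.9 FPKM in control 1 and 2, and 17.1 and 25.0 FPKM in mutant 1 and 2. Both mutant samples were far below both controls, with a mean of 21.1 ± 5.56 FPKM (SD, n = 2) against 89.0 ± 11.4 (SD, n = 2), or 23.7% of the control mean.

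On the log2 scale Dnali1 changed by -2.04 ± 0.21 (SE), with an adjusted p of 0.00159. It passed in all 11 alternatives with 4 samples and with each sample left out. Its last bases overlap the end of Gnl2 on the opposite strand.

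Dynlrb1 and Dynlrb2 encode the roadblock light chains, close paralogs that sit on the intermediate chains and serve cytoplasmic dyneins as well as axonemal ones. In NCBIM37, Dynlrb1 lies at chr2:155062269-155076013 and Dynlrb2 at chr8:119028915-119039796, both on the plus strand with up to 4 exons. How the counting shared reads between such similar genes is not stated in the sources used here. The fall was found for Dynlrb2.

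Dynlrb2 was read at 134 and 116 FPKM in control 1 and 2, and at 47.8 and 35.3 FPKM in mutant 1 and 2. It was the most abundant member in the controls, and its mutant mean of 41.5 ± 8.82 FPKM (SD, n = 2) was 33.3% of the control mean of 125 ± 12.8 (SD, n = 2). For Dynlrb2 the log2 fold change was -1.58 ± 0.19 (SE), with an adjusted p of 0.00371. Without control 1 the adjusted p was 0.0577.

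Dynlrb1 was read at 23.8 and 27.6 FPKM in control 1 and 2, and at 31.0 and 29.5 FPKM in mutant 1 and 2. The mutant values lay just above the control values. For Dynlrb1 the log2 fold change was 0.23 ± 0.17 (SE), with an unadjusted p of 0.207 and an adjusted p of 1.0. Dynlrb1 overlaps Pigu on the opposite strand.

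Dynlrb2 supplied 84.9% and 80.7% of the summed FPKM of the roadblock pair in control 1 and 2, and 60.6% and 54.4% in mutant 1 and 2. The pair was therefore led by Dynlrb2 in every sample, by a smaller margin in the mutants. The log2 ratio of Dynlrb2 to Dynlrb1 differed by -1.84 (exact permutation test, two-sided, n = 2 per genotype, p = 0.33, the smallest possible).

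**Figure D2:**
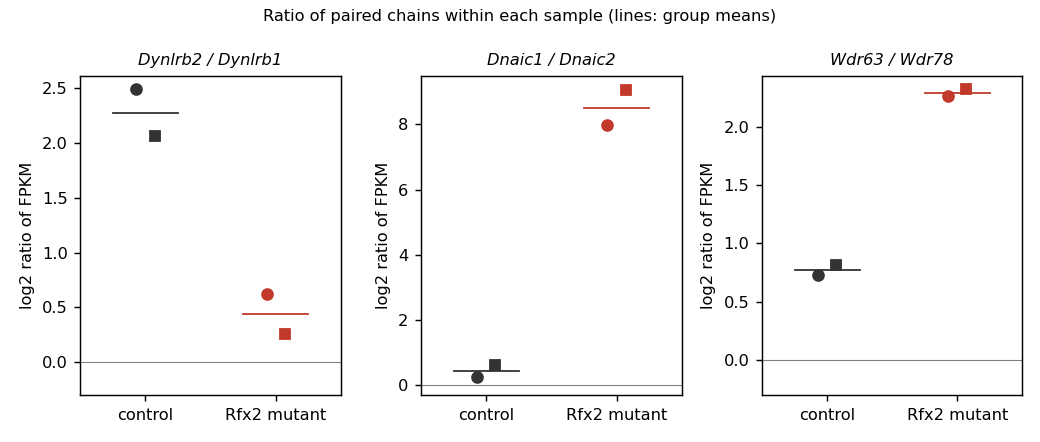
The log2 ratio of FPKM of a pair of related chains (vertical axis) in each sample, with controls in black and Rfx2 mutants in red, circles for replicate 1, squares for replicate 2 and lines at the group means. In each panel both mutant samples lie apart from both controls, with the largest gap for Dnaic1 to Dnaic2. This separation follows from the levels themselves, since the chains of each pair lay on opposite sides of the controls.

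Dnal1 and Dnal4 are the light chains found under older symbols. Dnal1, a leucine-rich repeat protein that binds the motor domain of an outer arm heavy chain, lies at chr12:85455278-85488448 on the plus strand and overlaps Pnma1 on the opposite strand. Dnal4 lies at chr15:79591883-79608279 on the minus strand. Neither passed the test.

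Dnal1 was the least abundant member in the controls, at 4.69 and 5.82 FPKM, and was read at 3.95 and 3.31 FPKM in mutant 1 and 2. Its log2 fold change was -0.43 ± 0.22 (SE), with an adjusted p of 0.789. Dnal4 was read at 70.4 and 54.4 FPKM in control 1 and 2, and at 41.3 and 36.4 FPKM in mutant 1 and 2. For both genes the mutant values were below both control values, by less than for the 4 falling members. Dnal4 had a log2 fold change of -0.66 ± 0.18 (SE), with an unadjusted p of 0.00742 and an adjusted p of 0.163. Without mutant 1 its adjusted p was 0.0231, and it was then called lower.

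**Figure D3:**
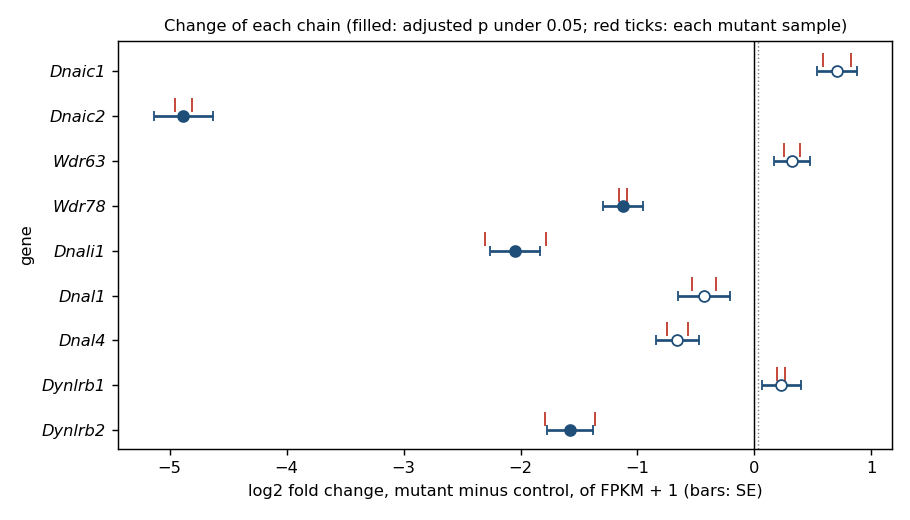
The log2 fold change of each chain (mutant minus control, of FPKM + 1) with its SE as a bar, filled where the adjusted p is under 0.05. Red ticks give mutant 1 and 2 against the control mean and the dotted line is the median of all genes tested, 0.03. The filled points are Dnaic2, Wdr78, Dnali1 and Dynlrb2.

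The order of the members by FPKM changed between the genotypes. In the controls the order of the mean levels was Dynlrb2, Dnali1, Dnal4, Dnaic1, Wdr63, Dnaic2, Dynlrb1, Wdr78 and Dnal1. Dnaic1, Wdr63 and Dnaic2 overlapped their neighbours in that order, as did Dynlrb1 and Wdr78, so their order is not set by these samples. In the mutants it was Dnaic1, Wdr63, Dynlrb2, Dnal4, Dynlrb1, Dnali1, Wdr78, Dnal1 and Dnaic2, with an overlap between Dynlrb2 and Dnal4 alone. The summed FPKM of the 9 members was 493 and 427 in the controls and 277 and 283 in the mutants.

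For each falling member, the tested genes with the most similar pattern were found as those with the smallest root-mean-square difference, over the 4 samples, of the log2 value less the control mean. For Dnaic2 these were 1700026D08Rik, Glipr1l1 and 1700019L03Rik, at 0.14, 0.15 and 0.15. For Dnali1 they were Bpifa3, Dnajb13 and 4933421I07Rik, at 0.07, 0.08 and 0.10. For Dynlrb2 they were Limd1, Ppp6r2 and Dcdc2a, at 0.04, 0.08 and 0.09. For Wdr78 they were Umodl1, Snord17 and Fam185a, at 0.03, 0.04 and 0.06. Umodl1 was read at 1.71 and 1.78 FPKM in the controls and at 0.24 and 0.313 FPKM in the mutants. Snord17 was read at 1.15 and 1.11 FPKM in the controls and at 0 FPKM in both mutants. Both passed the filter through the controls alone. The pseudocount of 1 shrinks the change of genes with low levels, so a small difference here need not mean a like fold. Dnajb13 was read at 177 and 150 FPKM in the controls and at 29.3 and 49.6 FPKM in the mutants. The measure is led by the difference between the genotypes and describes 4 samples.

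The other genes of the pathway were counted in lists. Of the axonemal dynein heavy chains, 10 of 14 were in the files and 7 passed the filter. Of these 7, 2 fell and none rose, against 2.52% and 0.308% of all genes tested. At an unadjusted p under 0.05 from limma, 2 were lower and 0 were higher, against 6.68% and 2.01% of all genes tested. The median of the 7 was -0.24. Dnahc10, an inner arm heavy chain of the I1 dynein, was read at 10.7 and 9.14 FPKM in the controls and at 0.533 and 0.678 FPKM in the mutants, and it too passed the filter through the controls alone. Dnahc10 had a log2 fold change of -2.76 ± 0.21 (SE) and an adjusted p of 0.000318. Dnahc6, another inner arm heavy chain, was read at 11.2 and 12.1 FPKM in the controls and at 2.83 and 1.81 FPKM in the mutants, with a log2 fold change of -1.94 ± 0.24 (SE) and an adjusted p of 0.00341. With no filter, 1 heavy chain passed.

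The partners of the members in each arm can be set beside them, although these heavy chains were chosen after their values were seen. Dnahc8 and Dnahc17, the outer arm heavy chains of sperm, had log2 fold changes of -0.38 (adjusted p = 0.989) and 0.08 (adjusted p = 1.0), beside -4.88 for Dnaic2. Dnahc2, the partner of Dnahc10 in the I1 dynein, was read at 18.9 and 16.9 FPKM in the controls and at 17.1 and 15.5 FPKM in the mutants, and its adjusted p was 1.0. In the I1 dynein, therefore, 1 heavy chain and 1 intermediate chain fell, while Dnahc2 and Wdr63 did not pass the test. Whether these chains differ from one another was not tested.

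In the outer dynein arm docking complex, the scaffold that holds outer arms on the doublets, 2 of 5 genes fell and none rose. The shares of all genes tested were 2.52% and 0.308%. The median of the 5 was -0.25. At an unadjusted p under 0.05 from limma, 2 docking genes were lower and 1 was higher, against 6.68% and 2.01% of all genes tested. Armc4 was read at 15.3 and 15.1 FPKM in the controls and at 1.05 and 2.54 FPKM in the mutants, a log2 fold change of -2.58 ± 0.29 (SE) with an adjusted p of 0.00222. Ttc25 was read at 79.8 and 66.6 FPKM in the controls and at 30.7 and 31.9 FPKM in the mutants, a log2 fold change of -1.19 ± 0.17 (SE) with an adjusted p of 0.00717. With median-ratio scaling or without control 1, 1 of the 5 genes passed.

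Of the dynein arm assembly factors, cytoplasmic proteins that build the arms before transport, 10 of 11 were in the files and tested. Of the 10, 1 fell and none rose, against 2.52% and 0.308% of all genes tested. The gene that fell was Pih1d3, listed as 4930521A18Rik, at 7.91 and 7.24 FPKM in the controls and 2.90 and 2.43 FPKM in the mutants. Its log2 fold change was -1.23 ± 0.21 (SE), with an adjusted p of 0.0225. The median of the 10 was -0.38. Against 6.68% and 2.01% of all genes tested, 4 of the 10 were lower at an unadjusted p under 0.05, and 1 was higher. This was 1110004E09Rik, named after its values were seen, at 200 and 168 FPKM in the controls and 279 and 242 FPKM in the mutants. The number that fell at an adjusted p under 0.05 was 4 with robust eBayes, without mutant 1 and without mutant 2, and 0 without control 1, with no filter and with a filter at 5 FPKM.

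None of the 5 tested other light chains of axonemal dyneins passed the test in limma, and 0 had an unadjusted p under 0.05. Their median was -0.35, and without mutant 2, 2 of them passed as lower. None of the 10 cytoplasmic dynein-1 chains passed in limma, with 0 at an unadjusted p under 0.05, and their log2 fold changes ran from -0.19 to 0.21 with a median of 0.04. None of the 5 chains of dynein-2, the motor of retrograde intraflagellar transport, passed in limma, and 2 were lower at an unadjusted p under 0.05, against 6.68% of all genes tested, with a median of -0.35. Both mutant samples lay below both controls for 15.2% of all genes tested. They did so for 4 of the 5 dynein-2 chains and 1 of the 10 cytoplasmic dynein-1 chains. The counts were 4 of the 7 tested heavy chains, 6 of the 10 assembly factors, 2 of the 5 docking genes and 2 of the 5 other light chains. Both mutant samples lay above both controls for 1 assembly factor, 1 docking gene, 1 other light chain and 1 cytoplasmic dynein-1 chain, against 16.3%. No tested heavy chain or dynein-2 chain did so. All genes of these lists sit in the same 4 samples as the members, and the lists were not tested against each other.

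**Figure D4:**
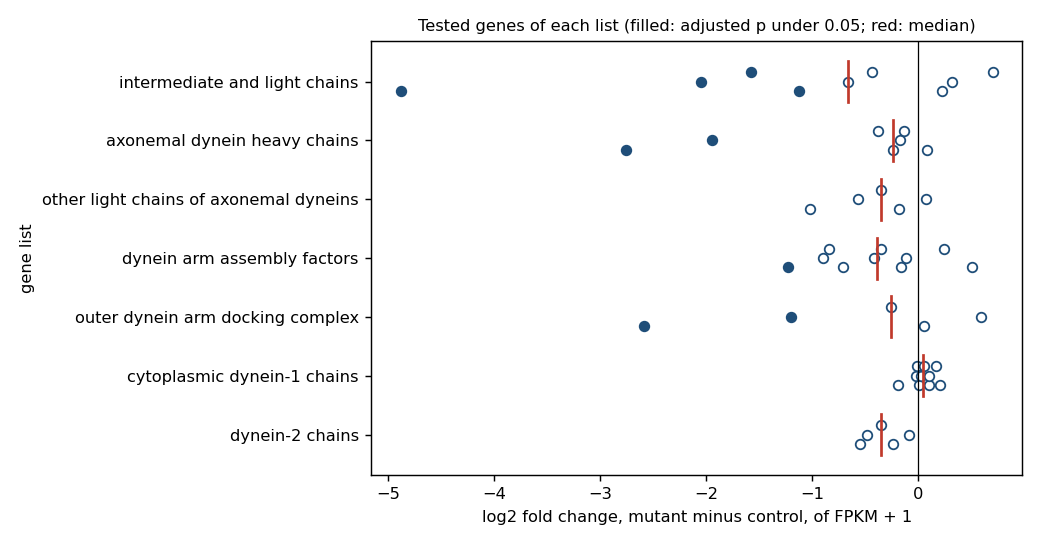
The log2 fold change (mutant minus control, of FPKM + 1) of each tested gene, 1 row for the intermediate and light chains and 1 for each list of other dynein genes. Points are genes, filled where the adjusted p is under 0.05, and red lines are medians, which run from -0.66 for the intermediate and light chains to 0.04 for the cytoplasmic dynein-1 chains.

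The samples were checked against markers of the cells that a testis holds. The confidence bounds correspond to about 17200000 fragments in mutant 2 and 19600000 to 20300000 in the other samples. Spermatocyte, round spermatid, spermatogonium, Sertoli cell, Leydig cell and macrophage markers were read above 0 FPKM in all samples. Lhcgr (Leydig cell) and Cd163 (macrophage) stayed below 1 FPKM in every sample and were not tested. None of the 39 tested genes of these 6 lists passed in limma. At an unadjusted p under 0.05, 0 were lower and 0 higher, against 6.68% and 2.01% of all genes tested. By histology, the study saw no elongating spermatids in older mutants. It nevertheless found no difference in Prm1, Prm2, Tnp1 and Tnp2 RNA between mutant and wild-type testes. That was by RT-PCR, another measure than here, and its age is not given with the result. The list named elongating spermatid here therefore does not show whether such cells were present. Of the 12 genes of that list, 2 (Prm1 and Tnp1) lay below both controls in both mutants and 0 lay above. The shares of all genes tested were 15.2% and 16.3%. Markers of that list differed between the mutants. Their summed FPKM was 1553 in mutant 1, 7217 in mutant 2, 8458 in control 1 and 5777 in control 2, and the median of the 12 genes against the control mean was -1.55 in mutant 1 and 0.27 in mutant 2. Round spermatid markers differed in the same direction, with a median of -0.32 in mutant 1 and 0.37 in mutant 2 and a summed FPKM of 789 and 1240, against 1040 and 844 in control 1 and 2.

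None of the 12 elongating spermatid markers passed in limma, with 0 at an unadjusted p under 0.05. The 4 falling members lay below both controls in mutant 1 and in mutant 2, as did 15.2% of all genes tested. They were picked by their call, which nearly fixes this. Against the control mean, the log2 values in mutant 1 and 2 were -4.81 and -4.96 for Dnaic2, -2.30 and -1.78 for Dnali1, -1.36 and -1.79 for Dynlrb2 and -1.16 and -1.09 for Wdr78. How the spermatid content of a sample bears on these values was not tested.

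Of the markers of multiciliated cells, Foxj1 was read at 19.6 to 46.2 FPKM and Ccdc67 at 15.6 to 41.9 FPKM over the 4 samples. Mcidas, listed as Gm6320, was at 0 to 0.0723 FPKM and Ccno at 0.697 to 1.51 FPKM. The summed FPKM of the 4 markers in the files was 36.0 and 54.4 in mutant 1 and 2, and 89.4 and 63.2 in control 1 and 2. None of the 3 tested markers passed in limma, 2 were lower at an unadjusted p under 0.05, against 6.68% of all genes tested, and their median log2 fold change was -0.55. Whether multiciliated cells were present, and whether they had a part in the levels of the members, was not tested.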

How the data were processed

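The study sequenced testis RNA on an Illumina instrument, aligned the reads to mm9 with TopHat 2.0.6 and estimated expression with Cufflinks. The authors deposited FPKM for each gene and sample, with its confidence bounds, normalized within a sample. The comparison by Cuffdiff on pooled reads cannot be repeated on these values. Entries that share a symbol were summed (22311 genes). The 12985 genes that reached 1 FPKM in 2 or more samples were tested on log2(FPKM + 1) in limma 3.58.1 under R 4.3.3, with lmFit, eBayes with a trend, and Benjamini-Hochberg adjustment at 0.05. The functions were tested on simulated data. Fragment numbers were derived from the bounds, which are taken as 2 SD either side of the FPKM, and cover counting error only. Replicates are the samples the labels number, which the study describes as independent. Positions come from NCBIM37 with GENCODE vM1 annotation.

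All members are named, as are called genes of each list, at most the 3 largest changes, and the 3 genes most alike to each called member. The members and lists were chosen with earlier results of these data known. Heavy chains Dnahc3, Dnahc7a, Dnahc12 and Dnahc14 and the assembly factor Ktu, with the markers Rhox5 and Cdc20b, were not found under their symbols or synonyms and were not analysed here. The alternatives were other pseudocounts, filters, scalings and spread estimates, a replicate block, the highest entry, samples left out, and other X-box windows and mismatches. The crossed replicate block and the alternatives for the lists, Rfx2 and the pair ratios were chosen after seeing the data.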

Additional observations from a re-analysis of the deposited data

How the results depend on the processing

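All 4 falling members stayed past the threshold in every alternative with 4 samples. Without control replicate 1, 2 of them passed, and over the samples left out the number lower ran from 2 to 5 and the number higher from 0 to 1. With robust eBayes and with the replicate block, 1 member (Dnaic1) was called higher. Of 143 alternative values of single members, 3 lost a call and 4 gained one. The median of the members was -0.89 with a filter at 5 FPKM, which dropped Dnal1, and -0.56 to -0.84 with a sample left out. Genes lower numbered 199 with no filter, 202 with a filter at 5 FPKM, 206 with median-ratio scaling and 167 to 948 with a sample left out. Genes higher numbered 17, 17 and 16 in those 3 alternatives, 67 with robust eBayes and 13 to 162 with a sample left out. The cause of these shifts was not tested.

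Same-numbered samples deviated weakly in opposite directions (r = -0.15 over 12985 genes, which are not independent). With 2 samples per genotype, this cannot settle whether the numbers pair samples. The replicate block gave 525 genes lower and 70 higher, 3 assembly factors and 1 of the other light chains lower, and changed no other call of a member than that of Dnaic1. The crossed pairing gave 266 genes lower and 28 higher.

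Heavy chains lower numbered 1 with no filter, assembly factors 0 with no filter or a filter at 5 FPKM and 4 with robust eBayes, and docking genes 1 with median-ratio scaling. With a sample left out, assembly factors ran from 0 to 4, docking genes from 1 to 3 and other light chains from 0 to 2. Rfx2 was at -1.43 with no filter and -1.45 with median-ratio scaling, both past no threshold, and at -1.20 to -1.66 with a sample left out. X-box members numbered 6 with 1 mismatch. With a pseudocount of 1 the log2 ratio differed by 5.59 for Dnaic1 to Dnaic2 and by 1.45 for Wdr63 to Wdr78.

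A sample left out leaves 1 in its group, which is assumed to vary like the other group. FPKM per gene cannot separate isoforms.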
